A study of Mus musculus with 24 samples.

Results

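The effect of losing Nudt12 was examined in mouse livers collected in the rest phase of the day, at zeitgeber times ZT4, ZT8 and ZT12 (hours after lights on; ZT12 is lights off). The members were 6 of the 24 libraries of the series, chosen by their labelled tissue, genotype and time: 3 wild-type and 3 knockout livers, with 1 library of each genotype at each time. The knockout mice carried a deletion of 58 bp in exon 6 of Nudt12, made with Cas9 and a pair of guides in B6D2F1/J embryos (a hybrid of C57BL/6J and DBA/2J), and the founders were crossed with C57BL/6J mice. The mice of the 12 time-course libraries were 4 to 6 months old and had been kept for 10 days in 12 h of light and 12 h of dark. The knockout is 1 deletion line, the labels do not say whether the wild types were littermates, and strain alleles may travel with the deletion. The libraries measured RNA depleted of ribosomal RNA, counted per gene and normalized by the authors. Values below are these normalized counts, and a log2 difference is the knockout value minus the wild-type value on the log2(value + 1) scale. For comparison, 6 livers of the same series came from the active phase (ZT16, ZT20 and ZT0), and 6 livers from mice of 3 to 4 months had no labelled time of day.

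NUDT12 is a nudix hydrolase that acts on NADH and NAD and can remove the NAD cap from the end of an RNA. It is found in peroxisomes and in the cytoplasm. Liver NAD and much of liver metabolism follow the circadian clock, in which BMAL1 and CLOCK drive genes that carry E-boxes and the PER and CRY proteins repress them. The question was what the deletion changes in livers in the rest phase, when the times of collection are the same for both genotypes.

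The deletion lies in exon 6 of 7 in transcript ENSMUST00000025065.11 of Nudt12 (ENSMUSG00000024228.12), at chr17:59003329-59003528 on the minus strand of GRCm38, and all 200 bases of the exon are coding. The exon is shown because it carries most of the nudix motif that the deletion was designed to hit. The capitals mark the 53 bases of the exon that belong to the 69-base nudix box, found by its sequence pattern in the translated transcript; the rest of the box lies in the exon before. The position of the 58 deleted bases within the exon was not analysed here.
Nudt12 exon 6: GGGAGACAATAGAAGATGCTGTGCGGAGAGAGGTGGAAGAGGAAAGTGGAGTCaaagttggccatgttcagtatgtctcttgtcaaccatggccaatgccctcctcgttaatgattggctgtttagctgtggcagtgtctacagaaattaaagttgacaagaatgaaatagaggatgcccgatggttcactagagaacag

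Nudt12 RNA was low in all 3 knockout livers. The wild-type livers held 1180.3 at ZT4, 613 at ZT8 and 1175 at ZT12, and the knockout livers held 176.5, 253 and 177. The groups did not overlap, and the ZT8 wild-type liver held the least of the wild types. The log2 difference was −2.24 (SE 0.31, n = 3 pairs), a 4.74-fold lower level, with a limma adjusted p of 0.479 over all genes. In the livers that stand outside the rest phase Nudt12 was lower by about the same amount, with log2 differences of −2.10 in the active phase (879, 915 and 982 in wild type against 193, 254 and 199.6) and −2.34 in the livers with no labelled time. Only the last of these passed the threshold (limma adjusted p 0.0329, in a joint fit with the rest-phase livers). Thus the gene that checks the labels matched them in every library, while 3 pairs at 3 different times left it above the adjusted threshold.

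No gene passed. Of 18605 genes tested with limma, with genotype and time in the model, 0 (0%) had an adjusted p below 0.05, and 966 (5.19%) had an unadjusted p below 0.05. Of the latter, 520 (2.79%) were higher and 446 (2.4%) lower in knockout. Groups did not overlap for 1600 genes (8.6%), and 4562 genes (24.5%) differed in the same direction at all 3 times. The knockout and wild-type liver of one time differed by a median of 0.258, 0.297 and 0.27 (absolute log2) at ZT4, ZT8 and ZT12, over the 13677 genes whose mean reached 10. Livers of one genotype taken at different times, which are also different livers, differed by 0.298 to 0.345. Genes past 2-fold were 9.31, 12.66 and 10.65% between genotypes at the 3 times, 12 to 12.12% between wild-type livers of different times and 12.66 to 13.9% between knockout livers. The exact test of 1 value over 3 pairs cannot give a two-sided p below 0.25.

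The normalized counts of the 6 libraries summed to 16.9 to 19.1 M (M is 1e+06), from an estimated 12.5 M reads (wild type, ZT8) to 25.3 M (wild type, ZT12). Mitochondrially encoded genes took 8.54 to 13.7% in wild type and 9.75 to 12.3% in knockout, and the 7SL gene Rn7s1 took 5.65 to 7.58% of a library. All 12 hepatocyte markers were above 0 in every library, as the tissue label requires. Hepatocyte markers, dominated by a few secreted proteins, summed to 1637900 to 2129200 in wild type and 1484400 to 1735100 in knockout, with 11 of 12 markers lower on average and a median log2 difference of −0.16. Macrophage (Kupffer cell) markers summed to 4002 to 5543 in wild type and 4875 to 5987 in knockout, with 12 of 12 markers higher on average, 8 of 12 when the ZT4 pair was left out. B and plasma cell markers summed to 240 to 276 and 314 to 447, without overlap, and cholangiocyte markers to 299 to 524 and 487 to 694. In whole tissue, fewer cells of a type and less RNA per cell cannot be told apart. Granulocyte markers stayed at 11.1 to 46.3 in the 6 libraries, with Camp and Elane at 0 in all of them.

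The 5 genes with the smallest p were the pseudogene Gm9755, Bmf, Serpina1e, Mup14 and Gm49391, each with a limma adjusted p of 0.272. Bmf encodes a BH3-only protein that promotes apoptosis. It held 343, 335 and 259 in the wild-type livers at ZT4, ZT8 and ZT12, and 73.1, 89.7 and 64.4 in the knockout livers. The groups stood far apart, with a log2 difference of −2.03 (SE 0.18). In the active phase Bmf stood at 139, 84.1 and 70.8 in wild type and 99.2, 54.5 and 105 in knockout, so the wild-type livers ran from 70.8 to 343 over the day and the knockout livers from 54.5 to 105. The rest-phase difference minus the active-phase difference was −1.85 (SE 0.36), with a limma adjusted p of 0.713.

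Serpina1e, one of a cluster of near-identical genes for the protease inhibitor alpha-1-antitrypsin, held 60252, 118300 and 100550 in wild type and 31875, 64414 and 51836 in knockout. The knockout liver was lower by a similar factor at each time, although the groups overlapped, and the log2 difference was −0.92 (SE 0.09). Reads of such copies can be split between them, so the value of 1 copy is uncertain. The processed pseudogene Gm9755 held 64.2, 51.6 and 46.4 in wild type and was listed at 0 in the 3 knockout livers, and Gm49391 was listed at 0 in the 3 wild-type livers and held 34.4, 28.9 and 31.1 in knockout. Gm9755 was listed at 0 in 2 wild-type and 0 knockout livers of the active phase, and Gm49391 in livers of both genotypes.

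A difference of at least 2-fold in the same direction at ZT4, ZT8 and ZT12 was found for 59 of 13677 genes (0.431%), 41 higher (0.3%) and 18 lower (0.132%) in knockout. These genes were chosen by their rest-phase values, which are given here as a description. Just inside the limit lay Snapc2, Npas2 and Mup14, whose smallest difference was 1.002, 1.006 and 1.015 (absolute log2), and just outside lay 6030443J06Rik, Mup1 and Gm14494 at 0.99, 0.99 and 0.98. Of the 59 genes, 9 (15.2%) were annotated pseudogenes, against 3.98% of the genes with a mean of at least 10, and 3 (5.08%) were listed at 0 in all 3 libraries of a genotype, against 0.205%. Nudt12 was the only one within 20 Mb of its own locus, where 1.51% of the genes lay.

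Among the lower genes, Sike1, whose protein restrains the kinases TBK1 and IKK-epsilon in antiviral signalling, held 410.3, 296 and 272 in wild type and 153, 103 and 80.8 in knockout. The log2 difference was −1.56 (SE 0.17, limma adjusted p 0.285). Rac2, a small GTPase of blood cells, held 121, 107 and 121 in wild type and 48.0, 13.9 and 17.9 in knockout, a log2 difference of −2.29 (SE 0.39, limma adjusted p 0.785). The wild-type livers lay close together for Rac2 and the knockout livers did not. Among the lists of blood cell markers, T and NK cell markers summed to 51.7 to 103 in wild type and 47.9 to 75.8 in knockout. Macrophage markers summed to 4002 to 5543 and 4875 to 5987, and granulocyte markers to 14.8 to 29.4 and 11.1 to 46.3. B and plasma cell markers summed to 240 to 276 and 314 to 447, higher in knockout without overlap. The part of blood cells in the Rac2 difference was not tested. Cyp2b10, a cytochrome P450 that the receptor CAR induces, held 69.6, 77.1 and 132 in wild type and 24.1, 31.3 and 8.97 in knockout. Its groups did not overlap, and the log2 difference was −2.17 (SE 0.54, limma adjusted p 0.945).

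Nnt, the mitochondrial transhydrogenase that makes NADPH from NADH, stands in the table as 2 entries. The reference entry (ENSMUSG00000025453.18, chr13:119335448-119408997, minus strand) held 272, 321 and 400.3 in wild type and 83.6, 77.7 and 174 in knockout. The other entry (ENSMUSG00000116207.1) held 310.0, 226 and 775 in wild type and 482, 519 and 433 in knockout. The reference entry took 46.7, 58.7 and 34.1% of the Nnt sum in the wild-type livers and 14.8, 13.03 and 28.7% in the knockout livers, without overlap. The shares overlapped in the active phase, at 32.0, 35.3 and 49.1% in wild type and 34.5, 19.8 and 31.4% in knockout, and in the livers with no labelled time the reference entry was higher in knockout (log2 difference 1.44). The sum itself stood at 582, 547 and 1176 in wild type and 565, 596 and 608 in knockout. C57BL/6J mice are known to carry a deletion in Nnt and DBA/2J mice an intact gene; the Nnt alleles of these mice were not tested.

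Among the higher genes, Nup210, a membrane protein of the nuclear pore, held 212, 212 and 87.4 in wild type and 533, 672 and 314 in knockout. Every knockout liver stood above every wild-type liver, with a log2 difference of 1.60 (SE 0.17, limma adjusted p 0.272). Ccdc167 held 35.8, 28.9 and 61.5 in wild type and 143, 291 and 262 in knockout, a log2 difference of 2.44 (SE 0.32, limma adjusted p 0.473). Cbl, an E3 ubiquitin ligase that turns off receptor tyrosine kinases, held 52.3, 32.7 and 60.5 in wild type and 291, 139.8 and 130.5 in knockout. Fras1, an extracellular matrix protein, ranged from 37.2 to 293 in wild type and from 352 to 1557 in knockout. Dmbt1, a secreted scavenger receptor of epithelia, was listed at 0, 177 and 0.713 in wild type and at 1258, 987 and 611 in knockout, and it varied from 0 to 3502 among the active-phase livers of both genotypes. The genes Eps8, Zbtb37, Pou6f1 and Gm12250 were higher by log2 differences of 1.48 to 1.61, with limma adjusted p from 0.528 to 0.826.

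**Figure D1:**
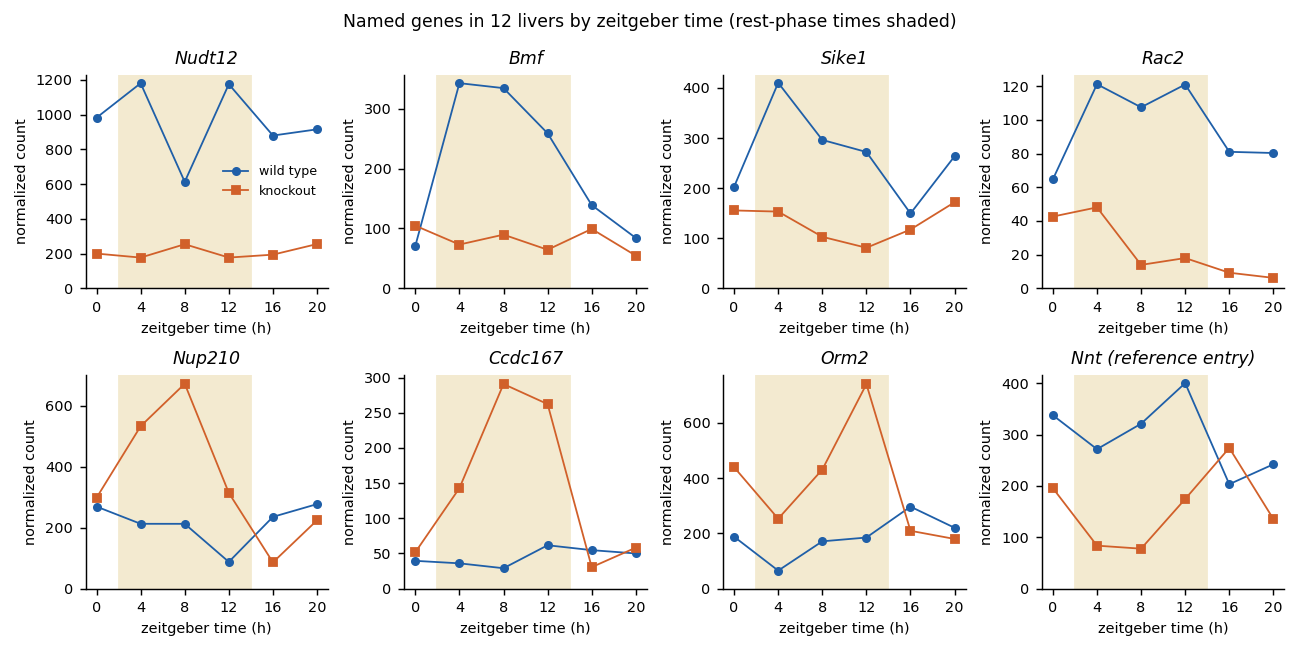
Normalized counts (y axes, from 0) of 8 named genes in the 12 time-course livers by zeitgeber time in hours (x axes); each point is 1 library, blue circles are wild type, orange squares knockout, and the rest-phase times are shaded. The genotypes stand apart in the shaded times by the way the genes were chosen; outside them Nudt12 and Rac2 stay apart while Nup210, Ccdc167 and Orm2 meet or cross.

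These genes were then read in livers that had not been used to choose them. The directions rest on those livers alone. The spread behind the limma SEs and p-values, here and for Rac2 below, was estimated with the rest-phase livers included. Without Nudt12, 29 of 58 (50%, Wilson 95% interval 37.5 to 62.5%) differed in the same direction in the active phase, where 52.9% of all genes with a mean of at least 10 did. In the livers with no labelled time, 25 of 58 (43.1%, interval 31.2 to 55.9%) did, against 46.2% of all genes. The intervals cover counting error only and treat genes as separate, which they are not. In the active phase 2 of the 58 had an unadjusted limma p below 0.05 in the same direction, Rac2 and Sike1, and 7 had one in the opposite direction, while 5.47% of all genes had one in either direction. In the livers with no labelled time the counts were 0 and 8, with 9.07% of all genes. Among the 21 genes with a mean of at least 50, 57.1% shared the direction in either set of livers.

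Besides Nudt12, Rac2 kept the size of its difference in the active phase. It held 81.0, 80.3 and 64.7 in the active-phase wild-type livers and 9.22, 6.16 and 42.6 in the knockout livers. The rest-phase values, by which the gene was chosen, are not counted here. The active-phase log2 difference was −2.37 (SE 0.57, limma adjusted p 0.81). In the livers with no labelled time the difference was −0.50 (SE 0.43, limma adjusted p 0.774). There Rac2 held 164, 56.0 and 104 in wild type and 57.4, 90.1 and 65.3 in knockout, so the groups overlapped. Sike1 held 149, 264 and 203 in the active-phase wild-type livers and 117, 172 and 155 in the knockout livers, a smaller log2 difference of −0.45.

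**Figure D2:**
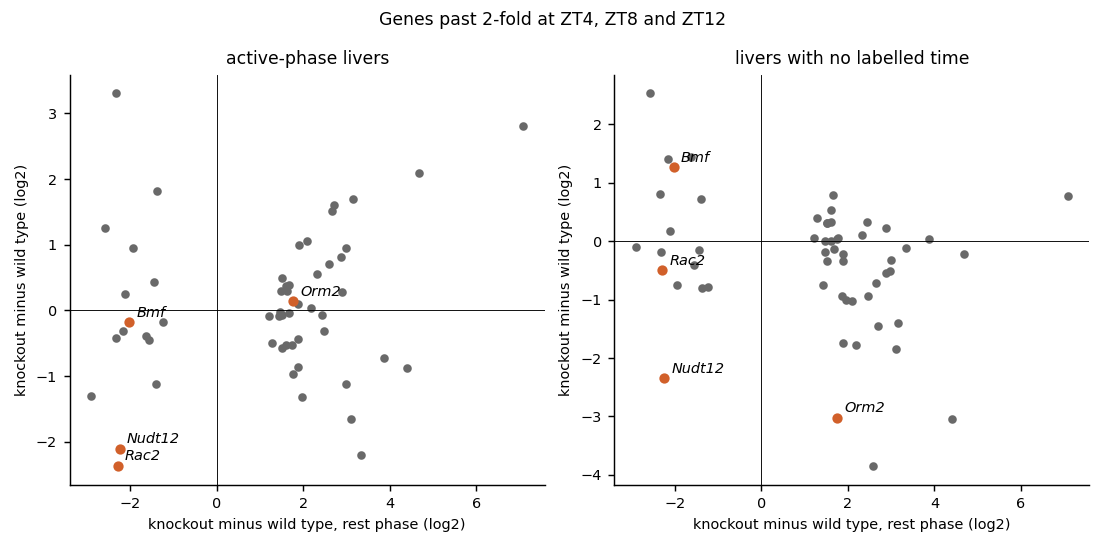
Log2 difference, knockout minus wild type, of 56 of the 59 genes past 2-fold at ZT4, ZT8 and ZT12. The x axes give the rest phase, the y axes active-phase livers (left) and livers with no labelled time (right). Each point is a gene, and 4 are named. Mup19, Gm9755 and Gm49391, each with a group listed at 0, are left out. Another gene, listed at 0 in the 3 rest-phase wild-type livers, is drawn. The points spread on both sides of 0 on the y axes. Over the 58 genes without Nudt12, drawn or not, 29 had the same direction in the livers on the left and 25 in those on the right.

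Most clock genes had their highest level at the same time in both genotypes. Of 20 clock genes, 16 did so, 13 had their lowest level at the same time, and 11 did both. The largest genotype difference was smaller than the wild-type range over time for 16 of the 20, with medians of 0.99 and 1.502 (log2). Arntl, which encodes BMAL1, held 221, 27.8 and 15.5 in wild type and 341, 23.9 and 50.6 in knockout, and in both the ZT4 liver stood far above the others. Per1 held 12.8, 134 and 249 in wild type and 7.79, 191 and 214 in knockout. Dbp, an output of the clock, held 313, 1222 and 919 in wild type and 98.0, 1178 and 553 in knockout. Both genotypes were lowest at ZT4 for Per1 and for Dbp.

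The promoters of Per1 and Ciart are shown because these were the clock genes with an E-box in the window whose wild-type level ranged most between ZT4 and ZT12. The sequences are from RefSeq (GRCm38.p6) and run from 250 bases before to 50 after an annotated start, of which a gene can have more than 1. Capitals mark the E-box CACGTG, which reads the same on both strands. Of the 12 E-box clock genes with a promoter in the table, 5 held the motif in at least 1 window, against 8.09% of 27025 genes, and of 5 genes of the Bmal1 arm, 0 did. A match describes these letters only. The Per1 window is at chr11:69098699-69098998 on the plus strand and the Ciart window at chr3:95882179-95882478 on the minus strand, with 1 and 3 matches. A second Per1 window, from chr11:69099902, held 0 matches, and the Per1 gene as annotated for the counts starts at chr11:69095217.
Per1 promoter: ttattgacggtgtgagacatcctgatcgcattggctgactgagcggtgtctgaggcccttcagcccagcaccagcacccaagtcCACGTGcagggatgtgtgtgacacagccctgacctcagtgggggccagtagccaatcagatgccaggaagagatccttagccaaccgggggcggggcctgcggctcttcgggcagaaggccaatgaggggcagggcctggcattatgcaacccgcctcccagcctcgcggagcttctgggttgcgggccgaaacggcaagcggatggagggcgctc
Ciart promoter: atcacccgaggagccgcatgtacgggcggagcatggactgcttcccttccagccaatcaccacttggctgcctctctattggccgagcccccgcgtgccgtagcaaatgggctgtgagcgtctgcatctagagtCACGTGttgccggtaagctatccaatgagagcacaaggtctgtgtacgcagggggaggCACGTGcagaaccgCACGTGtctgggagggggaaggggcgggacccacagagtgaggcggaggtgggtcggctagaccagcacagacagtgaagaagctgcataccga

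Ciart, which represses BMAL1 and CLOCK, held 23.2, 161 and 295 in wild type and 6.14, 221 and 296 in knockout. As with Per1 above, the knockout liver was the lower one at ZT4 and the genotypes were close at ZT12. The log2 difference was −0.44 (SE 0.45) for Ciart and −0.12 (SE 0.30) for Per1, with limma adjusted p of 0.954 and 0.99. Over the 14 E-box clock genes 2 were higher and 12 lower in knockout, with a median log2 difference of −0.31, while 50% of all genes were higher and their median was 0.00. The medians at ZT4, ZT8 and ZT12 were −0.57, 0.08 and −0.09, and without the ZT4 pair 6 of 14 were higher. The 2 higher genes were Cry1 (80.4, 62.9 and 152 against 103, 112 and 302) and Tef. Of the 6 genes of the Bmal1 arm 4 were higher, with a median of 0.13, and Npas2, a partner of BMAL1, held 6.02, 0 and 0 in wild type and 67.0, 1.01 and 3.88 in knockout.

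Read against curves of the wild-type clock genes, the knockout livers of ZT4, ZT8 and ZT12 matched 3.1, 9.0 and 13.4 h. Wild-type livers of these times, each left out of the curves in turn, matched 4.3, 10.1 and 12.0 h. The knockout offsets of −0.9, 1.0 and 1.4 h lay within the largest wild-type offset of 2.1 h and beyond the median wild-type offset of 0.25 h (absolute). The wild-type offsets came from curves that lacked the time being read, the knockout offsets from curves of all times, so these are not like measures. With no labelled time, the other cohort differed far more in the same genes: 13 of the 14 E-box clock genes were higher in its knockout livers, with a median log2 difference of 1.79, and the median of the Bmal1 arm was −1.33. The rest-phase difference minus that of the other cohort had an unadjusted limma p below 0.05 for 11 of the 14 and 4 of the 6, against 8.19% of all genes, and an adjusted one for 0 of either list. Age, cohort and time of day differ together between those livers and the rest-phase livers and cannot be told apart.

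**Figure D3:**
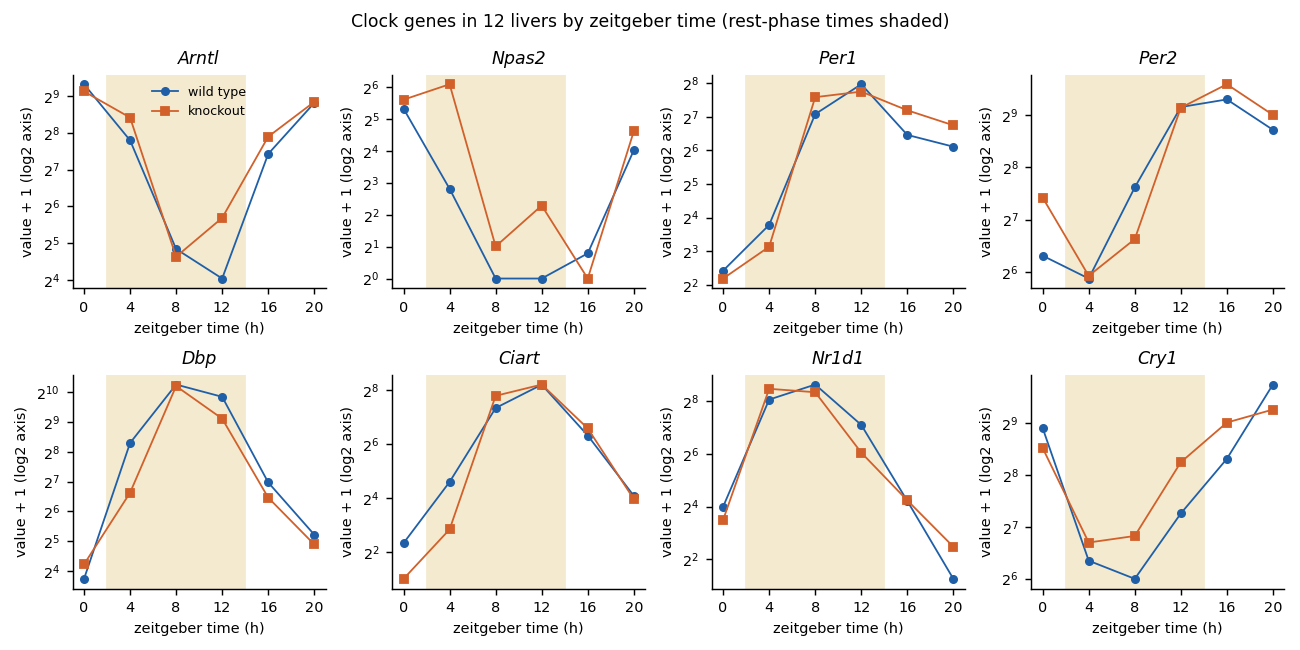
Normalized count + 1 of 8 clock genes (y axes, log2) in the 12 time-course livers by zeitgeber time in hours (x axes); each point is 1 library, blue circles are wild type, orange squares knockout, and the rest-phase times are shaded. In the shaded times both genotypes are lowest at ZT4 for Per1, Per2, Dbp and Ciart and highest at ZT4 for Arntl and Npas2.

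Only 2 genes differed in their genotype effect between the rest-phase livers and those with no labelled time, in a joint limma fit of 18985 genes chosen after the data had been seen (2 called, 0.0105%; 1554 at an unadjusted p below 0.05). One was Bmf, with a log2 difference of −2.03 in the rest phase and 1.26 in the other cohort (difference −3.30, SE 0.34, limma adjusted p 0.0352). The other was Upp2, the liver uridine phosphorylase and a clock output, which held 4010.1, 12267 and 17128 in wild type and 2654, 10196 and 11122 in knockout. Its log2 difference was −0.49 in the rest phase and 2.10 in the other cohort (difference −2.60, SE 0.29, limma adjusted p 0.0352). Neither gene was called when the pair of ZT4, ZT8 or ZT12 was left out, or knockout liver 2 or 3 of the other cohort. Both were called without its knockout liver 1 or any 1 of its 3 wild-type livers, and the number of genes called ran from 0 to 19 over these 9 fits. Between rest and active phase, 0 of 18702 genes had a differing genotype effect by limma and 924 (4.94%) an unadjusted p below 0.05.

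Acute-phase genes, which the liver makes in inflammation, were mostly higher in the rest-phase knockout livers. Of 27 genes, 25 were higher on average and 16 were higher at all 3 times (12.6% of all genes), 8 had an unadjusted limma p below 0.05 in that direction (2.79% of all), 6 had groups that did not overlap (4.58% of all), and 0 passed the adjusted threshold. The list had a median log2 difference of 0.25, with 0.26, 0.07 and 0.66 at ZT4, ZT8 and ZT12, while the median of all genes was 0.00. Without the pair of ZT4, ZT8 or ZT12, 23, 24 and 22 of the 27 were higher.

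Orm2, an orosomucoid that carries drugs and lipids in plasma, held 64.9, 171 and 185 in wild type and 253, 431 and 740.4 in knockout, a log2 difference of 1.76 (SE 0.20, limma adjusted p 0.285). Lcn2, a siderophore-binding protein, held 3.95, 8.90 and 12.7 in wild type and 21.9, 51.1 and 122 in knockout (log2 difference 2.59, SE 0.40, limma adjusted p 0.626). Both genotypes were lowest at ZT4 and highest at ZT12 for Orm2 and Lcn2, and the groups did not overlap. Orm3 held 35.6, 169 and 27.6 in wild type and 200.4, 247 and 222 in knockout, and Apcs, serum amyloid P, held 363, 680.4 and 479 against 456, 1369 and 1752. Orm2 and Orm3 are close paralogs whose reads can be exchanged. The macrophage and B cell marker sums given above were also higher in knockout; their part in the acute-phase difference was not tested.

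In the livers with no labelled time the direction was the other way, with 1 of the 27 higher in knockout and a median log2 difference of −0.96. The rest-phase difference minus that one had an unadjusted limma p below 0.05 for 20 of 27 genes (8.19% of all genes) and an adjusted one for 0. The wild-type livers of that cohort lay far apart. Orm2 held 911, 7901 and 2707 in them and 523, 318 and 217 in knockout, and Lcn2 held 189, 9256 and 980 against 140, 41.2 and 96.4. Wild-type liver 2 was the highest for both, and its part in the median was not tested. In the active phase 21 of 27 were higher, with a median of 0.14 and medians of −0.13, −0.13 and 0.60 at ZT16, ZT20 and ZT0.

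Interferon-response genes were higher in 26 of 35 cases, with a median log2 difference of 0.26 and 0.63, −0.15 and 0.24 at ZT4, ZT8 and ZT12. Igtp, an interferon-induced GTPase, held 559, 329 and 188 in wild type and 928, 1028 and 813 in knockout, without overlap (log2 difference 1.49, SE 0.27, limma adjusted p 0.826). Stat2, which carries the interferon signal to the nucleus, held 358, 366 and 397 in wild type and 512, 660.2 and 525 in knockout. Irf7 was also higher at every time (log2 difference 0.60), whereas Mx1, an antiviral GTPase, was lower at every time (log2 difference −1.37). Without the ZT4 pair 19 of 35 were higher, with a median of 0.055, and 0 passed the adjusted limma threshold. The macrophage markers also had their largest median at ZT4 (0.59), and the B and plasma cell sums did not overlap; the part of these cells in the interferon difference was not tested.

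**Figure D4:**
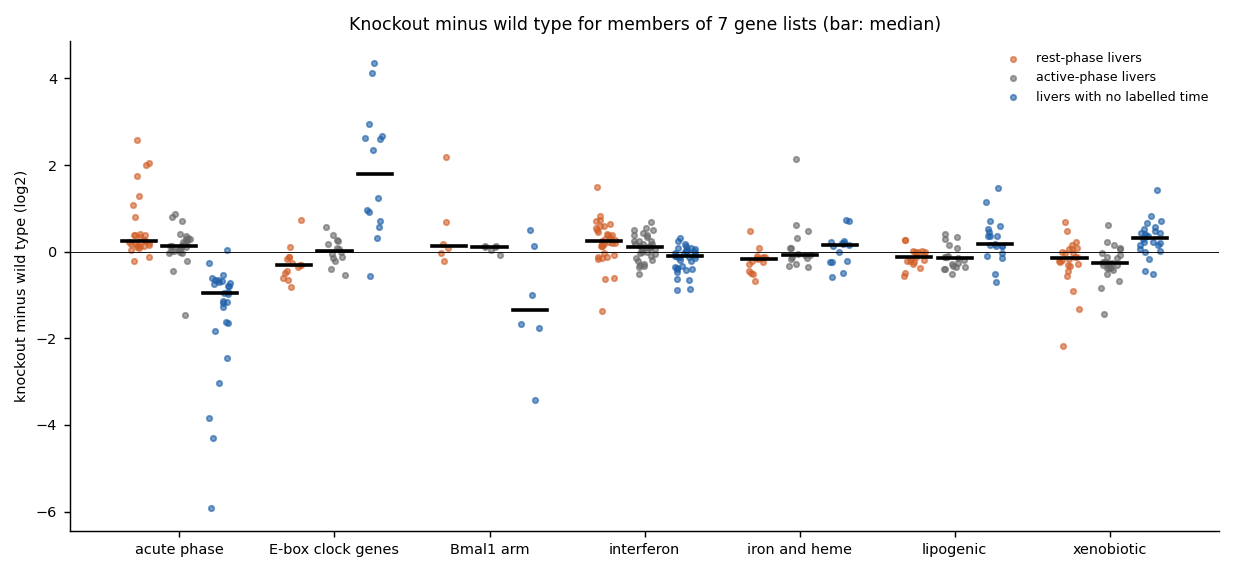
Log2 difference, knockout minus wild type (y axis), of the members of 7 gene lists (x axis) in the rest-phase livers (orange), the active-phase livers (grey) and the livers with no labelled time (blue); each point is a gene and each bar the median of the list. For acute-phase genes the medians are 0.25, 0.14 and −0.96, and for E-box clock genes −0.31, 0.03 and 1.79.

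Genes of iron and heme handling were lower in 13 of 15 cases, and 5 of the 15 had groups that did not overlap, lower in knockout (4.02% of all genes). The median log2 difference was −0.16, the same as that of the 12 hepatocyte markers. Of 6 erythroid markers 5 were lower (median −0.34), 2 of them without overlap; the part of either cell type in the iron and heme difference was not tested. Hamp, the hormone hepcidin that blocks iron export, held 2159, 2859 and 2163 in wild type and 1517, 1373 and 1603 in knockout (log2 difference −0.67, SE 0.15, limma adjusted p 0.945). Urod, an enzyme of heme synthesis, held 867, 744 and 665.9 against 582, 394 and 634. Slc40a1, the iron exporter ferroportin, held 2827, 2828 and 2818 in wild type and 2659.7, 2011 and 2385 in knockout. Hamp was higher in knockout in the active phase on average (log2 difference 0.48), where its wild-type livers ran from 612 to 3948, and 6 of the 15 genes were higher there.

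Genes of drug metabolism were lower in 17 of 24 cases, 6 of them at an unadjusted limma p below 0.05 (2.4% of all genes), with a median log2 difference of −0.14, close to the hepatocyte markers, whose part was not tested here or for the lipogenic genes. Without the ZT12 pair 11 of 24 were higher and the median was −0.067. Besides Cyp2b10, Cyp2c29 was lower without overlap, at 30012, 22586 and 23444 in wild type and 21421, 20715 and 18221 in knockout. The glutathione transferases Gsta1 (105, 77.6 and 99.9 against 90.4, 17.2 and 30.7) and Gsta2 (637, 599 and 499 against 625, 262 and 176) were close at ZT4 and apart at ZT8 and ZT12. These near-identical copies also had lower levels in the active phase, with log2 differences of −1.43 and −0.84. Of 15 targets of the stress factor NRF2, 13 were lower, with a median of −0.19, and 3 of 15 were higher in the active phase. Gsta1 and Gsta2 stand in both lists.

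Lipogenic genes were lower in 15 of 19 cases (median log2 difference −0.13, beside −0.16 for the hepatocyte markers). Without the ZT12 pair 8 of 19 were higher and the median was −0.045. Srebf1, the factor that drives fatty acid synthesis, held 1639, 2126 and 1720.1 in wild type and 1377, 1411 and 961 in knockout, without overlap (log2 difference −0.56, SE 0.14, limma adjusted p 0.945). Fasn, the fatty acid synthase, held 6523, 5406 and 4369 against 6141, 3461 and 2636. Both were lower in the active phase as well, by −0.51 and −0.35, and higher in the livers with no labelled time, by 1.14 and 0.71. Of 24 genes of cholesterol synthesis, 7 were higher and 17 lower, with Sqle higher at each time (987, 944 and 582 against 1279, 1259 and 743).

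Genes closest to the known activity of NUDT12, those of NAD metabolism and of RNA decapping, had median log2 differences of −0.09 and 0.01. Of 30 genes of NAD metabolism 9 were higher and 21 lower, while 50% of all genes were higher. At an unadjusted limma p below 0.05 were 2 of the 30, both lower, where 2.4% of all genes were lower. These were the sirtuin Sirt7 (528, 505 and 363 against 409, 352 and 247) and Haao, an enzyme of the pathway from tryptophan to NAD (4360.4, 4836 and 4847 against 4059, 3882 and 3397). Nampt, the rate-limiting enzyme of NAD salvage, held 846, 1049 and 2723 in wild type and 821, 1814 and 3273 in knockout, and it ranged more between times than between genotypes. Of 30 genes of RNA decapping and decay 18 were higher and 12 lower, with a median of 0.01 (13 higher without the ZT8 pair), and the decapping factor Dcp1b was lower at each time (48.1, 73.9 and 26.9 against 31.9, 15.2 and 18.2). The 5′ to 3′ exonuclease Xrn2 held 1159.5, 1260.3 and 1266 against 1022, 1144 and 959, without overlap. The nudix genes Nudt5 and Nudt6 went the other way, with log2 differences of 0.40 and 0.85. Nudt5 was higher in knockout at each time (192, 261 and 310 against 233, 437 and 351). Nudt6 was higher at ZT4 and ZT8 only (27.8, 28.5 and 67.8 against 65.5, 77.9 and 64.6).

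Of 32 genes for peroxisomal enzymes 21 were higher, with a median log2 difference of 0.03. Uox, urate oxidase, was lower at each time (log2 difference −0.22). Targets of PPAR-alpha were higher in 20 of 34 cases (median 0.03), and in 13 of 34 without the ZT8 pair, led by the omega-hydroxylase gene Cyp4a32 at 174, 168 and 260.1 in wild type and 731, 747 and 550.5 in knockout. In the active phase Cyp4a32 stood at 752 to 1125 in wild type and 252 to 721 in knockout, and it has near-identical neighbours. Among 28 genes of the cell cycle 21 were lower, with a median of −0.29. At an unadjusted limma p below 0.05 were 2 higher genes (2.79% of all genes) and 2 lower genes (2.4% of all). Cdk1 was lower, at 24.4, 23.2 and 58.6 in wild type and 4.43, 7.56 and 12.7 in knockout. Gadd45g was higher at each time (3.85, 9.68 and 14.9 against 16.3, 18.5 and 30.8). Without the ZT4 pair 12 of the 28 were higher, and in the active phase 20 were.

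Among clock outputs beyond the core genes, 5 of 15 were higher and 10 lower (median log2 difference −0.12). Noct, nocturnin, a phosphatase of NADP and NADPH, held 1940.4, 2148 and 3315 in wild type and 1148, 1572 and 2401 in knockout. Both Noct and Upp2 were lower in the knockout liver at each time, and in both genotypes their level was lowest at ZT4 and highest at ZT12. Of 21 heat shock genes 14 were higher, with a median of 0.03.

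Major urinary protein genes, near-identical copies for carriers of pheromones that are among the most abundant liver RNAs, differed between livers in opposite directions. Mup14 held 129345, 59160.8 and 128970 in wild type and 44381.2, 19643.8 and 63829 in knockout, a log2 difference of −1.38 (SE 0.14). Mup1 held 47706, 259780 and 50487.5 in wild type and 197324, 514899 and 278445 in knockout, and Mup9 held 51541, 383415 and 90750.5 against 309295, 648246 and 442048. In both genotypes the liver with the least Mup14 had the most Mup1 and Mup9. The sum over the 21 Mup genes stood at 1088660, 1633000 and 1419090 in wild type and 1187080, 1600240 and 1721210 in knockout, so it overlapped.

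The knockout liver at ZT8 stood apart within this family. Mup19 was listed at 0 there, while the other 5 rest-phase livers held 67626 to 272835, and Mup12 and Mup15 held 384 and 121 there, against 10349 to 16029 and 23468 to 67540 in the others. The 3 active-phase wild-type livers had the same pattern, with Mup19 listed at 0, Mup12 at 251 to 403 and Mup15 at 0 to 786. The genotype difference of Mup12 and Mup19 had opposite signs in the rest and active phases, at each time. Mup15 was lower in knockout at ZT8 alone (37755 against 121) and slightly higher at ZT4 and ZT12. In the active phase Mup15 was far higher in knockout, at 18538 to 130394 against 0 to 786 in wild type. The value of a single copy is uncertain, since reads of near-identical copies can be given to one or another.

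**Figure D5:**
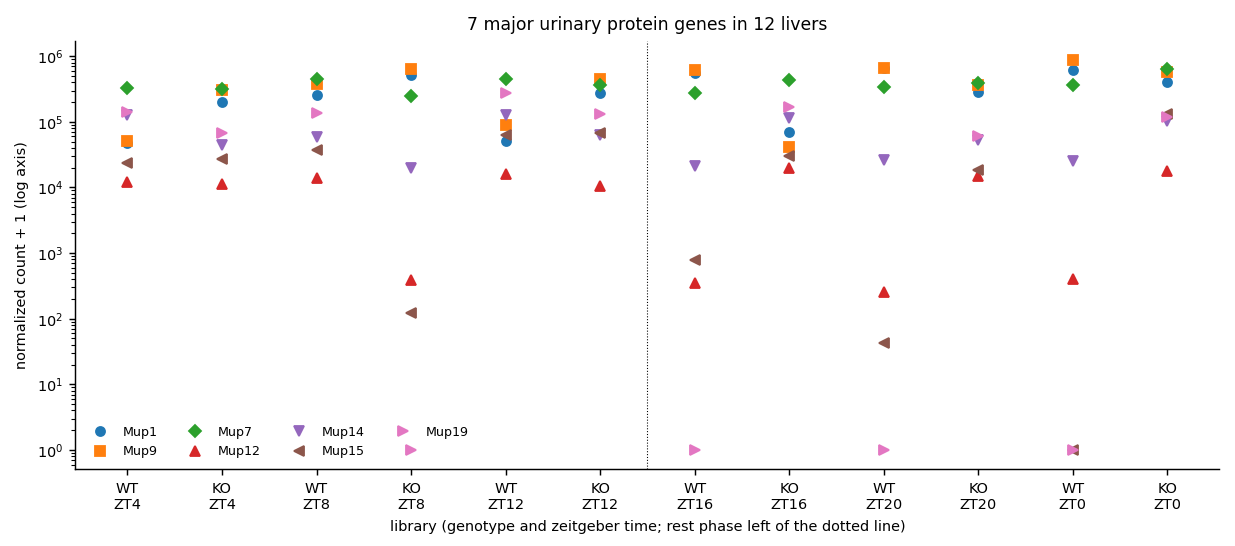
Normalized count + 1 (y axis, log scale) of 7 major urinary protein genes in the 12 time-course libraries (x axis, by genotype and zeitgeber time; rest phase left of the dotted line); each point is 1 gene in 1 library. Mup12, Mup15 and Mup19 are low in the knockout liver at ZT8 and in the 3 wild-type livers of the active phase, where Mup1 and Mup9 are high.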

How the data were processed

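The authors deposited a normalized signal per gene (estimated counts scaled between libraries) for 12 livers of the time course, in a table of 50765 genes, per the file headers. The submitters' processing notes name the build GRCm38, Salmon 0.12.0, DESeq2 1.24.0, DESeq and R 3.6.0 without saying which step each served. Of values under 30, 12.4 to 15.7% were whole multiples of the commonest step of their library (to within 0.001 step), so reads could not be recovered and no count test was run. Depths given are sums divided by that step, an approximation.

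Values were taken as log2(value + 1), genes with a mean of at least 1 were kept, and limma 3.58.1 in R 4.3.3 was fitted with genotype and time as a factor, a variance trend, two-sided, with Benjamini-Hochberg adjustment at 0.05 over all genes. Differences of low genes are understated on this scale. The labels tie libraries of one number by zeitgeber time, so time was the block. Deviations of same-time libraries from their group means correlated at 0.155, 0.0575 and 0.102 (ZT4, ZT8, ZT12), those of different times at −0.138 to 0.037. The contrast with the active phase used the 12 time-course libraries, and that with the livers of no labelled time a joint fit of within-table effects, since tables were normalized separately.

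Internal time was read on a grid of 0.1 h from 24 h cosine curves. Tables were handled with pandas 2.3.3 and numpy 2.4.6, and figures drawn with matplotlib 3.10.9. Scripts were tested on simulated data.

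Where nothing says that libraries came from separate mice, p-values measure only the spread between these samples. The members, the 57 gene lists (12 of cell markers), the tests and the alternatives were chosen with earlier results of these data known. Named were Nudt12, the 5 genes with the smallest p, genes with a 2-fold difference at each time and a mean of at least 50, all members of both clock lists, up to 4 members of each described list by p, and the 5 smallest p of the contrast with the active phase; 1 gene under this rule is not reported here. Genes named at the edge of the 2-fold limit, Mup7, Mup15, Camp and Elane were chosen after their values were seen.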

Additional observations from a re-analysis of the deposited data

Results flagged for a closer look

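The genotype difference was of one sign at ZT4, ZT8 and ZT12 and of the opposite sign at ZT16, ZT20 and ZT0 for 15 of the 98 genes checked. The share of all genes with such a pattern was not computed. Some of the 98 genes had been chosen by a small p in the contrast with the active phase, so the pattern was partly built in. With all libraries, no limma test of the difference passed for any of the 15. Without the ZT8 pair it passed for Mup19 and Mup12. Most of the 15 were major urinary protein genes. The rest-phase log2 differences were −1.38 for Mup14, −2.34 for the pseudogene Mup-ps16, 1.83 for Mup1, 1.88 for Mup9, 0.46 for Mup10, −1.97 for Mup12, −0.95 for Mup11 and −0.46 for Mup16. In the active phase they were 1.81, 3.31, −1.61, −1.79, −0.69, 5.71, 2.18 and 1.14. Mup19 had a median of 67626 in the rest-phase knockout livers, below the wild type, and was listed at 0 in the 3 active-phase wild-type livers.

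Outside that family, the rest-phase and active-phase log2 differences were 1.99 and −1.47 for Orm3, 1.76 and −0.97 for Cyp4a32, and −1.95 and 0.95 for Cdk1. They were 0.28 and −0.49 for Hmgcs1, an enzyme of cholesterol synthesis, −0.17 and 0.34 for Gclm, a subunit of the enzyme that makes glutathione, and −1.06 for Vmn2r120, annotated as a vomeronasal receptor, which was higher in knockout at all 3 active times. The median of the B and plasma cell markers was 0.68 in the rest phase and −0.48 in the active phase, of one sign at all times of a phase; this difference was not tested.

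The genotype effect differed between the rest-phase livers and those with no labelled time by the limma interaction for Bmf (−2.03 and 1.26) and for Upp2 (−0.49 and 2.10), both with an adjusted p of 0.0352.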

How the results depend on the processing

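No gene passed the limma threshold in the rest phase under 10 of the 11 alternatives; with no replicate block (time left out of the model) 1 did, Gm9755, and the block changed no other call of a named gene. Over the 11 alternatives the Nudt12 log2 difference ran from −2.73 to −2.00 and never passed. The contrast with the active phase called 0 genes, except that 3 were called without replicate 2 (the ZT8 pair): Mup19, Mup12 and Kctd15. The range was thus 0 to 3 when pairs were left out. The contrast with the livers of no labelled time, with alternatives chosen after seeing the data, called 0 to 19 genes when libraries were left out (2 with all).

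Of the 59 genes past 2-fold at each time, 22 had a mean of at least 50, and a limit of 1.5-fold gave 224. With 0.1 or 5 added to the values in place of 1, the count was 70 or 40. After rescaling by the median ratio it was 58. With a pair left out, which leaves 2 times to meet, 217 to 305 genes passed and the counts without overlap were 5029 to 5960. The share of same direction was 57.1% in either other set of livers for 21 genes with a mean of at least 50. With a pair left out it was 42.4 to 48.1% in the livers with no labelled time and 47.7 to 53.1% in the active phase. Directions that turned when 1 pair was left out had values from −0.093 to 0.25 for Clock, −0.15 to 0.13 for Rora, −0.43 to 0.14 for Per1, −0.50 to 0.019 for Per2, −0.67 to 0.059 for Nr1d1, −0.60 to 0.077 for Hlf, −0.88 to 0.23 for Ciart and −0.34 to 0.18 for Usp2.

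With 1 library per genotype and time, a difference between 2 livers cannot be separated from one between genotypes at that time.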
